A study of Mus musculus with 51 samples.

Results

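Intermediate filament genes were examined in the histone mark profiles of an in vitro model of astrogliogenesis, as a set of 8 of the 22359 coding genes of the mouse annotation. The genes were taken by name: Gfap, Vim, Nes and Synm, whose filaments are known from astrocytes and their progenitors, and Nefl, Nefm, Nefh and Ina, whose filaments are known from neurons. For each gene, every peak that overlapped the gene body or the 10 kb on either side was collected from the 6 peak lists. H3K27ac and H3K4me1 had been profiled by chromatin immunoprecipitation and sequencing (ChIP-seq) in aNPC, eA and lA. aNPC are astrogliogenic neural precursor cells made from C57/BL-6 mouse embryonic stem cells and kept with the growth factors EGF and FGF-2. eA are the astrocytes after 1 day and lA the astrocytes after 5 days in differentiation medium with serum and LIF, a cytokine. No group carried a knockdown or a transgene, and all 3 stages came from this embryonic stem cell system. Each list was called on the merged reads of 2 replicates, so that a stage has 1 list per mark, no error between cultures and no test between stages. In a culture, fewer cells with a mark and less of the mark per cell cannot be told apart.

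Intermediate filaments are ropes of coiled proteins that give a cell its mechanical strength, and their makeup changes with the cell's type. Neural progenitors are known for vimentin (Vim) and nestin (Nes), mature astrocytes add glial fibrillary acidic protein (Gfap), and synemin (Synm) links such filaments to other parts of the cell. Neurons use the light, medium and heavy neurofilament proteins (Nefl, Nefm, Nefh) and alpha-internexin (Ina), which set the calibre of axons. H3K27ac marks promoters and enhancers that are in use. H3K4me1 is typical of enhancers and of the flanks of promoters, and it can be present before or without acetylation.

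In the order aNPC, eA and lA, the lists held 79413, 83433 and 92700 H3K27ac peaks and 154238, 185478 and 208333 H3K4me1 peaks. The number of reads behind them is unknown here. A −log10 q is therefore not comparable between lists, and the place of a peak is given as its rank, the percent of peaks in its own list with a −log10 q at least as high, so that a small percent is a strong peak. A rank still depends on how many weak peaks its list holds. Ranks were not recomputed on lists of equal length, which limits the reading of a rank over the stages. Series of 3 values are in the order aNPC, eA and lA. Of marker genes for the labelled cells, the neural progenitor genes Sox2 and Pax6 had an H3K27ac promoter peak at every stage and Olig2 at none. Of 6 for astrocytes, 3, 3 and 4 had one at the successive stages, where 50.6%, 53.2% and 48.2% of all coding genes had one. Aqp4, a water channel of astrocytes, had one in lA alone (rank 32.6%) and the gap junction gene Gja1 in eA and lA, whereas S100b, a calcium-binding protein gene, had one in aNPC alone (29.4%). Aldh1l1 had no promoter peak of either mark. Both embryonic stem cell markers (Pou5f1 and Nanog) lacked promoter peaks in all 6 lists. For neurons, 2 of 4 (Tubb3 and Map2, the latter listed under its older symbol) had an H3K27ac promoter peak at every stage. Over all coding genes the share was 45.2%. The astrocyte and neuron counts thus lie near the shares over all coding genes, and they do not tell the cell type. None of 3 oligodendrocyte markers had an H3K27ac promoter peak.

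The sequences of 7 regulatory stretches on which the results below turn were read from the mm9 genome, 300 bases each, on the strand of the gene. Capitals mark matches to any of 7 short motifs searched on both strands: STAT (TTCNNNGAA), the NF1 half-site (TTGGC), AP-1 (TGANTCA), CRE (TGACGTCA), RUNX (TGTGGT), SOX (ACAATG) and POU (ATGCNAAT). The first 5 surround the summits of H3K27ac peaks. They are the Gfap promoter peak in lA (chr11:102759080-102759379, minus strand, upstream of the coding start), the next upstream Gfap peak in lA (chr11:102760221-102760520, minus strand), the Vim promoter peak in aNPC (chr2:13495149-13495448, plus strand), the Nes peak of intron 2 in lA (chr3:87777838-87778137, plus strand) and the peak before the alternative start of Synm in lA (chr7:74886275-74886574, minus strand, intron 2 of the long transcript). The last 2 are the bases just upstream of the coding starts of Nefh (chr11:4848068-4848367, minus strand) and Ina (chr19:47088888-47089187, plus strand). They are shown because H3K4me1 peaks, with or without H3K27ac, overlapped them, and they are not centred on summits. At Nefh these peaks ended at 4848178, 4848147 and 4848174 in stage order and covered only the part of the stretch next to the gene.
Gfap promoter: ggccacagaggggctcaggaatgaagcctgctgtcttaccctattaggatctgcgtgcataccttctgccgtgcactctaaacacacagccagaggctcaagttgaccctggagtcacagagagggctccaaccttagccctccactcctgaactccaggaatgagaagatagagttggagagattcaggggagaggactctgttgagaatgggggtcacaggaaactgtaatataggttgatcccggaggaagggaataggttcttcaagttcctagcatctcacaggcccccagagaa
Gfap upstream: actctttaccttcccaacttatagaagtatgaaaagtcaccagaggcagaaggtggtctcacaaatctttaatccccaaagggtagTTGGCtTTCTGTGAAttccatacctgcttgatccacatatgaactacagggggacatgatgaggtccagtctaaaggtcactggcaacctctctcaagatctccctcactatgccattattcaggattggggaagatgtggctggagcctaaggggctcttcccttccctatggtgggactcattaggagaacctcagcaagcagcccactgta
Vim promoter: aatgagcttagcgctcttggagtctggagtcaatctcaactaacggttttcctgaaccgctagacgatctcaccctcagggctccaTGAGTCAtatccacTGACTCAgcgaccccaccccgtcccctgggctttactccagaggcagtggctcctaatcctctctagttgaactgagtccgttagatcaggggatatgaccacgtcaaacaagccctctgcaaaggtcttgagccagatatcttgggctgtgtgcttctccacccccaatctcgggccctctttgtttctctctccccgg
Nes intron: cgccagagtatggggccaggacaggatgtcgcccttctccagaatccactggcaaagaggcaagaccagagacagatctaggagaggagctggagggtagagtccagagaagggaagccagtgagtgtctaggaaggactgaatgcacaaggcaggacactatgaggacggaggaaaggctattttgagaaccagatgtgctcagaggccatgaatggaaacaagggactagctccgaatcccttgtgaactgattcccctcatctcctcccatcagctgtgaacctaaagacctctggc
Synm alternative promoter: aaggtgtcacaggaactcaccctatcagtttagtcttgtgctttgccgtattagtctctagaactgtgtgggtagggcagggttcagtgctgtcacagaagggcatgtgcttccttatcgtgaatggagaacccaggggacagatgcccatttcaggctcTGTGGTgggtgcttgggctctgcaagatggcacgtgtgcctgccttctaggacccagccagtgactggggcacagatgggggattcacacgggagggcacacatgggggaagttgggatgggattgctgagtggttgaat
Nefh upstream: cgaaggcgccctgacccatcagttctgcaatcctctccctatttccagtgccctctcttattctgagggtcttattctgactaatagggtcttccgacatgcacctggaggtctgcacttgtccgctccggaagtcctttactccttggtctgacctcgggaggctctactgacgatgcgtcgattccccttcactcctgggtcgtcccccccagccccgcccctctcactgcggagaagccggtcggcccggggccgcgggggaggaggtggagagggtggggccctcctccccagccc
Ina upstream: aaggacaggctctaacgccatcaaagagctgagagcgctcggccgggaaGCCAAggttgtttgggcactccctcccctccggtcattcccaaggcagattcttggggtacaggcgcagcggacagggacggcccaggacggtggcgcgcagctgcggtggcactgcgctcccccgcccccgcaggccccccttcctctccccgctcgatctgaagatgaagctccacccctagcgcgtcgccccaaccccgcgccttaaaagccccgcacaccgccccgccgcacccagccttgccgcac

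A promoter was taken as the 1 kb before a coding start and the 100 bp after it, and a promoter peak as a peak that overlaps it by at least 1 bp. H3K4me1 promoter peaks were found at 8 of 8 genes in aNPC, where 55.4% of all coding genes had one, at 8 of 8 in eA (53.6%) and at 8 of 8 in lA (52.7%). H3K27ac promoter peaks were found at 5 of 8 genes in aNPC, where 50.6% of all coding genes had one, at 5 of 8 in eA (53.2%) and at 4 of 8 in lA (48.2%). These counts lie near the shares over all coding genes for H3K27ac, and they say which genes had a peak and not that the set stands apart. Gfap, Vim, Nes and Synm had H3K27ac at the promoter at every stage, as did 45.2% of coding genes, and 46.7% of coding genes had H3K4me1 there at every stage. At a −log10 q of at least 5 Synm had no H3K27ac promoter peak in aNPC, which left Gfap, Vim and Nes with one at every stage. Nefl, Nefm and Nefh had H3K4me1 at every stage and H3K27ac at none, a state of 5.41% of coding genes. When the summit of a peak had to lie inside the promoter, H3K4me1 was left at 5, 4 and 4 of the 8 genes. Synm and Nefh then had it at no stage and Nefl in lA alone, so that of the neurofilament triplet Nefm kept it at every stage. Ina had H3K27ac in aNPC and eA and not in lA, as 3.74% of coding genes did. Its H3K27ac summits lay 308 and 193 bp inside the gene, so that with the summit required in the promoter Ina had no H3K27ac call at any stage.

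The whole pattern over the 6 lists was shared by 7580 coding genes (33.9%) for Gfap, Vim, Nes and Synm, by 1209 for the neurofilament triplet and by 564 (2.52%) for Ina. Presence in all 6 lists is thus a common state of mouse promoters, whereas H3K4me1 without H3K27ac is less common. The start itself was covered at some genes. In each stage a coding start of the same 5 genes (Synm, Nefl, Nefm, Nefh and Ina) lay inside an H3K4me1 promoter peak, where the shares over all coding genes were 23.0%, 21.9% and 19.4% in stage order. At Gfap, Vim and Nes, the H3K4me1 promoter peaks lay upstream and left the start uncovered. A start inside H3K27ac was seen for Vim, Synm and Ina in aNPC, for Gfap, Synm and Ina in eA, and for Gfap and Synm in lA. These 3, 3 and 2 of 8 genes compare with 39.0%, 39.4% and 30.8% of coding genes.

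**Figure D1:**
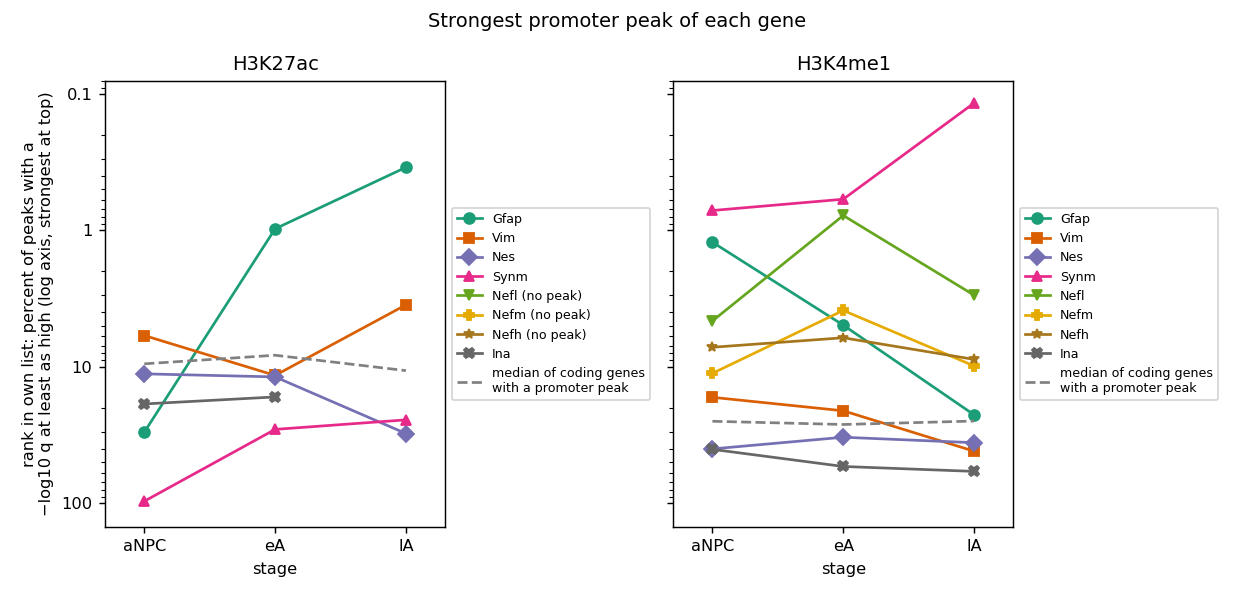
The strongest promoter peak of each gene by stage, as its rank in its own list in percent (vertical log axis, strongest at the top), for H3K27ac (left) and H3K4me1 (right). Each point is 1 list, and the dashed line is the median over all coding genes with a promoter peak. The H3K27ac rank of Gfap went from 30.3% in aNPC to 0.344% in lA while its H3K4me1 rank went from 1.22% to 22.6%, and Nefl, Nefm and Nefh have no H3K27ac point.

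Gfap, the filament gene most used as a marker of astrocytes, had an H3K27ac promoter peak that was weaker than the median promoter peak in aNPC and near the top of its list in lA (chr11:102748650-102762226, minus strand, coding starts at 102758514 and 102758445). The H3K27ac promoter peak was 734 bp wide in aNPC and ended upstream of the start. It was 1653 bp wide in eA and 1662 bp in lA, reaching past the start over the first exon. Its rank went from 30.3% by way of 0.973% to 0.344%. The median rank of the best H3K27ac promoter peak over coding genes that had one was 9.54%, 8.25% and 10.7% at the same stages, so that the Gfap peak lay on the weak side of other promoters in aNPC and among the strongest peaks of any kind in lA. The H3K4me1 promoter peak took the opposite course, with ranks of 1.22%, 4.96% and 22.6% against medians of 25.2%, 26.6% and 25.1%.

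Further peaks accompanied the Gfap promoter on its upstream side. A site centred 1939 bp upstream of the start, which lies beyond the promoter, carried H3K27ac and H3K4me1 at all 3 stages, and the H3K27ac rank went from 35.3% to 9.41% and 3.65%. A second site, centred 3386 bp upstream, had neither mark in aNPC and both in eA and lA, with H3K27ac ranks of 38.3% and 12.1%. The annotated gene runs beyond the coding starts to 102762226, so that both sites lie inside it. The second site (102761634-102762165) ends close to this outer end of the gene. Promoters were taken at coding starts only, so that a start there was not counted. At the other end, in exon 9, the last of the gene, H3K4me1 was present at every stage (ranks 10.1%, 40.8% and 18.1%) and H3K27ac appeared in eA (40.6%) and lA (26.5%) only. A smaller exon 9 site had H3K27ac in eA alone, with a rank of 53.1%. The exon 9 sites thus had H3K4me1 in aNPC before an H3K27ac peak was called, and the site at 3386 bp did not.

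The highest H3K27ac peak of the Gfap window outside the Gfap promoter in aNPC (rank 0.631%) lay at the shared promoter of the neighbours Eftud2 and Ccdc103, and it ranked at 5.27% in eA and 5.84% in lA. In eA and lA the upstream Gfap site at 1939 bp, with −log10 q of 68.9 and 53.4, was the strongest peak at no promoter of a coding start. A pair of sites inside the body of Ccdc103, centred 14223 and 12931 bp downstream of the Gfap start, had H3K27ac in lA alone, with ranks of 23.5% and 28.4%. The second overlapped the promoter of Fam187a and had no H3K4me1 peak at any stage.

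Vim, the filament gene of progenitors and of astrocytes, had H3K27ac on both sides of its start at every stage (chr2:13495554-13504453, plus strand), and its window held no other coding gene. The upstream site spanned 1571 bp in aNPC as 1 peak, was split into peaks of 705 and 480 bp in eA and was 1340 bp wide in lA. Its rank was 5.91%, 11.6% and 3.52%. The site that began within exon 1 was 849, 1759 and 1390 bp wide at the successive stages, with ranks of 18.7%, 9.05% and 9.70%. In aNPC this site ended in intron 1, and in eA and lA it ran past exon 2 into intron 2. It was the strongest H3K27ac peak outside the promoter in each list and held no H3K4me1 peak. A small peak covered the coding start at 13495579 in aNPC (272 bp, rank 20.6%), began just inside the gene in eA (160 bp, 38.2%) and was absent from the lA list. A site of 174 bp in intron 2 had H3K27ac in eA alone (rank 63.0%) and H3K4me1 in aNPC alone (94.9%), a peak lost at a −log10 q of at least 5.

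At Vim, H3K4me1 lay mostly farther from the start than H3K27ac. Upstream of the start the summit of its strongest peak lay 1742 bp away in aNPC (rank 16.8%), 2145 bp away in eA (21.1%), and 2581 bp away in lA (29.7%). The first and second overlapped the promoter, as did a peak of 240 bp in aNPC (73.7%), and in lA the promoter peak was another one, of 556 bp (41.8%). Downstream of intron 2, H3K4me1 peaks without H3K27ac increased in number over the stages from 1 to 3 and 5, between exon 4 and intron 8. A pair of the lA peaks lay within 1 wider eA peak of 1237 bp, and the weakest of the eA peaks ranked at 86.9%. The strongest of them ranked at 51.3%, 11.4% and 23.4%.

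Nes, whose product defines neural progenitors, had H3K27ac on both sides of its coding starts, and over neither of them, at all stages (chr3:87775000-87784373, plus strand). In aNPC 1 peak of 1773 bp began at exon 1 and another of 1391 bp covered intron 2. In eA a single peak of 3260 bp ran over both, and in lA they were separate again with 1459 and 833 bp. The peak at exon 1 ranked at 11.3% in aNPC and 31.0% in lA, and the joint eA peak at 11.9%. A smaller peak just upstream of the start ranked at 56.0%, 68.3% and 48.3%. The peak in intron 2, the region long used as a neural progenitor enhancer in transgenes, ranked at 8.26% in aNPC and 5.98% in lA. H3K4me1 covered intron 2 with 1397 bp in aNPC (17.1%) and 308 bp in eA (71.6%), and there was no H3K4me1 peak in lA. The acetylated intron 2 of lA was therefore without a called H3K4me1 peak, whereas the H3K4me1 peak upstream of the start stayed at ranks of 40.2%, 33.0% and 36.2%.

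A second group of peaks lay downstream of Nes, between its end and the end of Bcan, the gene of the matrix proteoglycan brevican. The site centred 14804 bp from the Nes start ranked at 18.9%, 6.63% and 1.88%, the strongest H3K27ac peak of the window in eA and lA. The site centred 11746 bp from the start ranked at 12.1%, 44.5% and 21.7%. A site at 10884 bp had H3K27ac in aNPC alone (41.7%), and its H3K4me1 peak was called in aNPC and eA. Sites at 13297 bp (eA and lA, 47.4% and 20.1%) and 12780 bp (lA alone, 78.3%) had H3K4me1 from aNPC on, and the latter lost its H3K27ac peak at a −log10 q of at least 5. Which of the 2 genes these peaks serve cannot be told from positions.

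Synm had the weakest H3K27ac promoter peak of the 8 genes in aNPC and the strongest H3K4me1 promoter peak in lA (chr7:74875047-74904628, minus strand). The aNPC peak of H3K27ac was 179 bp wide with a −log10 q of 2.98 and a rank of 97.4%, near the end of the list, and it was lost when a −log10 q of at least 5 was required. In eA the peak was 938 bp wide and ranked at 28.9%. In lA a peak of 484 bp lay over the start (24.6%) and another of 484 bp next to it in the gene (49.7%). The H3K4me1 peak over exon 1 was 1318, 1266 and 1281 bp wide and ranked at 0.714%, 0.590% and 0.116%. Near the alternative coding start at 74885479, which lies within the gene, sites centred 961 and 1744 bp upstream had H3K27ac in eA and lA and none in aNPC, and sites at 496 and 6994 bp had it in lA alone. None of the 4 had H3K4me1 in aNPC, and all had it in eA and lA, where the H3K4me1 peak at this start ranked at 22.4% and 7.44%. These H3K27ac peaks were weak. The sites at 961 and 1744 bp ranked at 91.6% and 96.3% in eA and at 59.1% and 53.5% in lA, and those at 496 and 6994 bp at 88.3% and 90.5%. At a −log10 q of at least 5 the former were left in lA alone and the latter at no stage. In exon 5, at the end of the gene, H3K4me1 was present throughout. An H3K27ac site there ranked at 97.4%, 74.5% and 46.4%, and another, absent from aNPC, at 56.8% in eA and 47.6% in lA.

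Nefl and Nefm, the light and medium neurofilament genes, lie next to each other on chromosome 14 and had no H3K27ac peak in their windows at any stage (Nefl chr14:68701920-68707152, plus strand, and Nefm chr14:68700647-68742903, minus strand). A long transcript of Nefm runs across Nefl, so that the window of Nefl lies inside that of Nefm, and peaks of both were counted once. A window without any H3K27ac peak was found for 30.5%, 28.3% and 29.5% of coding genes at the successive stages. Over the start of Nefl lay 1 H3K4me1 peak of 1736 bp, then 1717 and 1468 bp, with ranks of 4.62%, 0.777% and 2.99%. Over the start of Nefm the H3K4me1 peak was 1815, 1831 and 1778 bp wide and ranked at 11.2%, 3.87% and 9.89%. In each list the H3K4me1 peak of both genes was stronger than the median promoter peak. Apart from these, the joint window held a single H3K4me1 peak, of 223 bp in eA (rank 74.3%).

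Nefh, the heavy neurofilament gene, resembled Nefl and Nefm at its start and differed at a distance (chr11:4838757-4848067, minus strand). Its start lay in an H3K4me1 peak of 1308 bp, then 1248 and 1369 bp, with ranks of 7.21%, 6.14% and 8.85%, and no H3K27ac peak overlapped the promoter. A weak H3K4me1 peak of 283 bp in lA (74.6%) overlapped the upstream end of the promoter, with its summit 1066 bp from the start. A site centred 17191 bp downstream of the start, between the 3′ ends of Nefh and of its neighbour Thoc5, carried both marks at all stages. Its H3K4me1 peak was among the strongest of the lists, with ranks of 1.94%, 0.0685% and 0.437%. Its H3K27ac peak ranked at 21.2%, 72.7% and 20%. A neighbouring site at 16486 bp had H3K27ac in aNPC (55.5%) and lA (80.6%), and at a −log10 q of at least 5 it was left in aNPC alone. About 6 kb upstream of Nefh, H3K4me1 was present without H3K27ac at every stage, with ranks of 35.1%, 18.0% and 12.2%.

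Ina was the only one of the 8 genes whose promoter had an H3K27ac peak in aNPC and none in lA (chr19:47089188-47099817, plus strand). The peak was 666 bp wide in aNPC and 906 bp in eA, with ranks of 18.8% and 16.7%, and no H3K27ac peak fell in the whole window of 30630 bp in lA. A second eA site centred 869 bp downstream of the start (225 bp, rank 69.4%) was absent from aNPC and lA. H3K4me1 overlapped the promoter at every stage with ranks of 40.5%, 54.1% and 58.8%, and in aNPC a second promoter peak of 511 bp lay upstream of the start (45.0%). A further H3K4me1 peak with its summit inside exon 1 was stronger, with ranks of 2.35%, 13.8% and 1.67%. The start of Nt5c2, a nucleotidase gene on the opposite strand, lies at 47089643, so that both H3K27ac sites also overlapped the Nt5c2 promoter. The Ina and Nt5c2 starts cannot be told apart by these peaks. Nt5c2 had an H3K27ac promoter peak in lA, at another of its starts outside the Ina window.

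**Figure D2:**
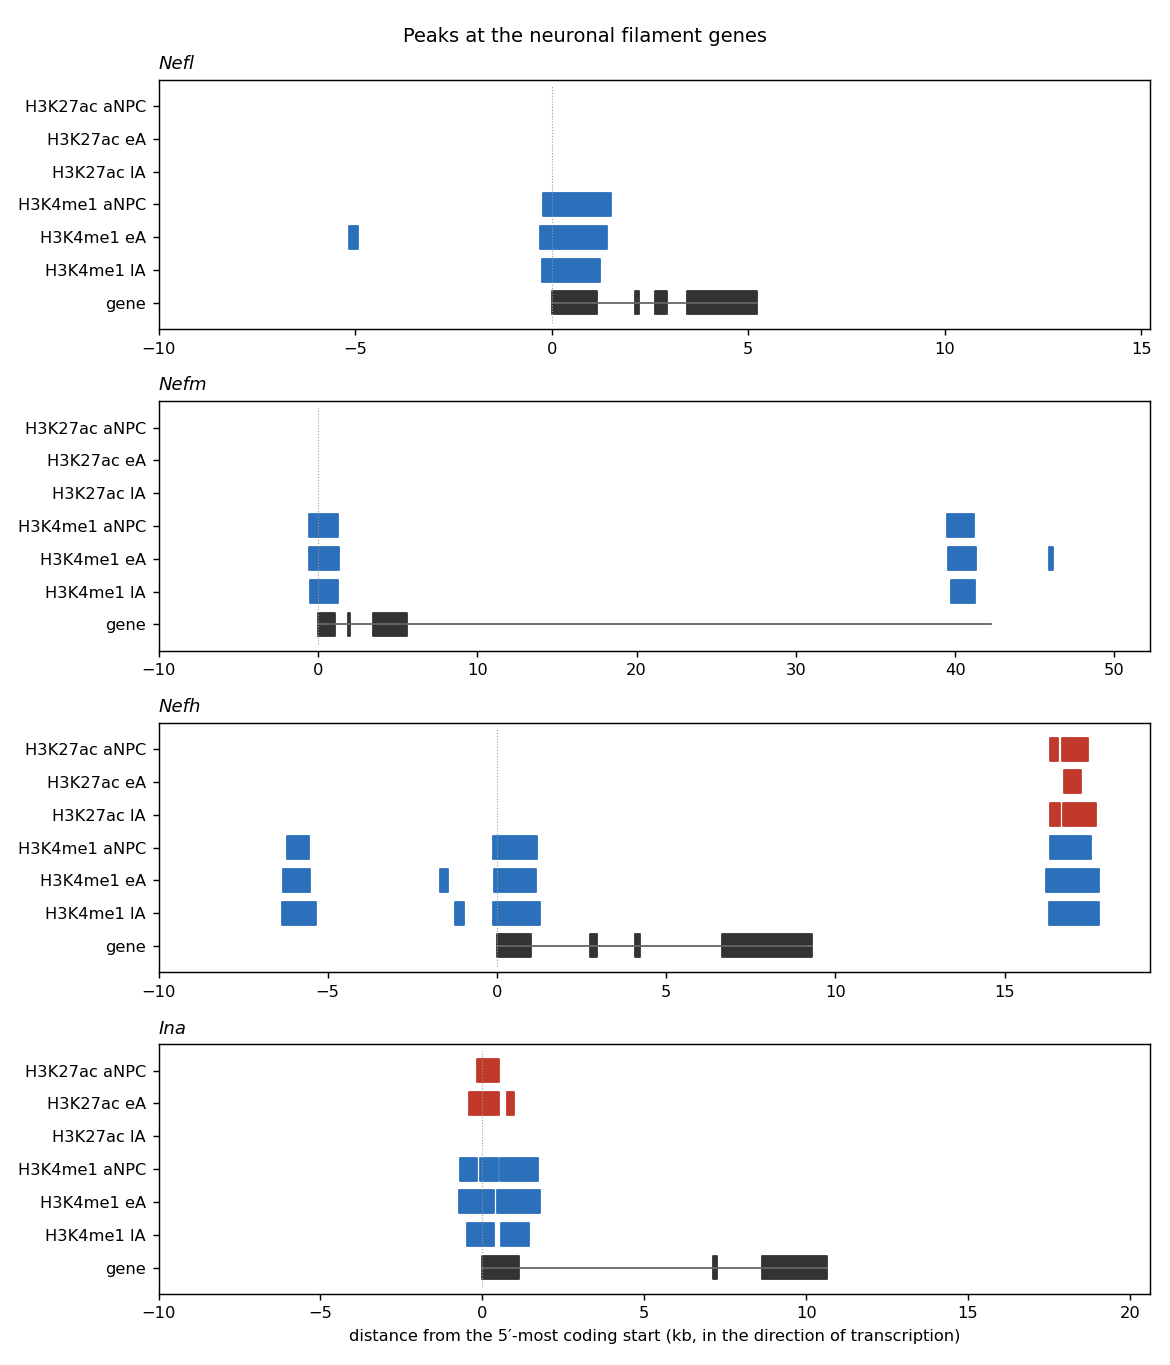
Peaks of H3K27ac (red) and H3K4me1 (blue) in the windows of Nefl, Nefm, Nefh and Ina, 1 row per list, against the distance from the coding start in kb in the direction of transcription, drawn as for the glial genes. The H3K27ac rows of Nefl and Nefm are empty, Nefh has H3K27ac only about 17 kb downstream, and Ina has it in aNPC and eA. The Nefm window includes the peaks of Nefl, at about 40 kb.

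Over the joined windows, there were 17, 25 and 28 H3K27ac peaks and 27, 40 and 41 H3K4me1 peaks in stage order. The median per window was 2, 3.5 and 2 for H3K27ac, against 2 over all coding genes at each stage, and 3, 4.5 and 5 for H3K4me1, against 4, 5 and 5. Windows differ in length, and per 10 kb the medians were above those of all coding genes, with 0.543, 0.831 and 0.687 H3K27ac peaks against 0.388, 0.463 and 0.453, and 1.00, 1.39 and 1.69 H3K4me1 peaks against 0.890, 1.04 and 1.10. When overlapping H3K27ac peaks of the 3 stages were joined, they made 30 sites. Of these, 12 had H3K27ac at all 3 stages (26.0% of all sites of the genome did), 6 in eA and lA (13.9%), 5 in lA alone (19.3%), 3 in eA alone (11.1%), 2 in aNPC and eA (4.87%), 1 in aNPC and lA (3.30%) and 1 in aNPC alone (21.5%). The site in aNPC alone was that downstream of Nes, joined at a −log10 q of at least 5 by the Nefh site at 16486 bp, and the 2 in aNPC and eA were at the start of the genes Vim and Ina. All 6 sites in eA and lA lay at Gfap, Nes and Synm.

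An H3K4me1 peak overlapped 21 of the 30 sites in aNPC (68.7% of sites of the genome), 26 of them in eA (77.4%) and 24 of them in lA (75.4%), which are 70.0%, 86.7% and 80.0% of the sites. Of the 14 sites without H3K27ac in aNPC, 7 had H3K4me1 there, about the share over the genome, 50.3%. They were the 2 sites in exon 9 of Gfap, the site in intron 2 of Vim, the sites 12780 and 13297 bp from the start of Nes, 1 in exon 5 of Synm and 1 in exon 1 of Ina. At a −log10 q of at least 5 there were 7 of 13 such sites (52.8% over the genome), without those in intron 2 of Vim and at 12780 bp from Nes and with those of Synm that lost H3K27ac in aNPC. The other 7 of the 14 were 4 around the alternative start of Synm and 3 of the Gfap window. H3K4me1 peaks that overlapped no H3K27ac site were 6 of 27 in aNPC (44.5% of that list), 18 of 40 in eA (47.3%) and 20 of 41 in lA (54.0%). At Gfap, Vim, Nes and Synm they numbered 2 of 19, 12 of 31 and 15 of 33 in stage order. At the neuronal filament genes they numbered 4 of 8, 6 of 9 and 5 of 8.

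The promoters also differed in base composition, which the choice of genes did not use. The ratio of observed to expected CpG dinucleotides over the promoter of the 5′-most coding start was 0.18 at Gfap, 0.46 at Vim, 0.47 at Nes and 0.68 at Synm. It was 0.63 at Nefl, 0.58 at Nefm, 0.48 at Nefh and 0.69 at Ina. Over all coding genes the median was 0.41, with quartiles of 0.20 and 0.62. Gfap was the one gene of the 8 below this median, and 78.4% of coding genes had a ratio at least as high. The median was 0.60 for genes with a promoter peak in all 6 lists and 0.17 for the 7632 genes with none, so that Gfap, with peaks in all 6, had a ratio like that of promoters without peaks. The genes with H3K4me1 at every stage and H3K27ac at none had a median of 0.43, and all 3 neurofilament genes lay above it.

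**Figure D3:**
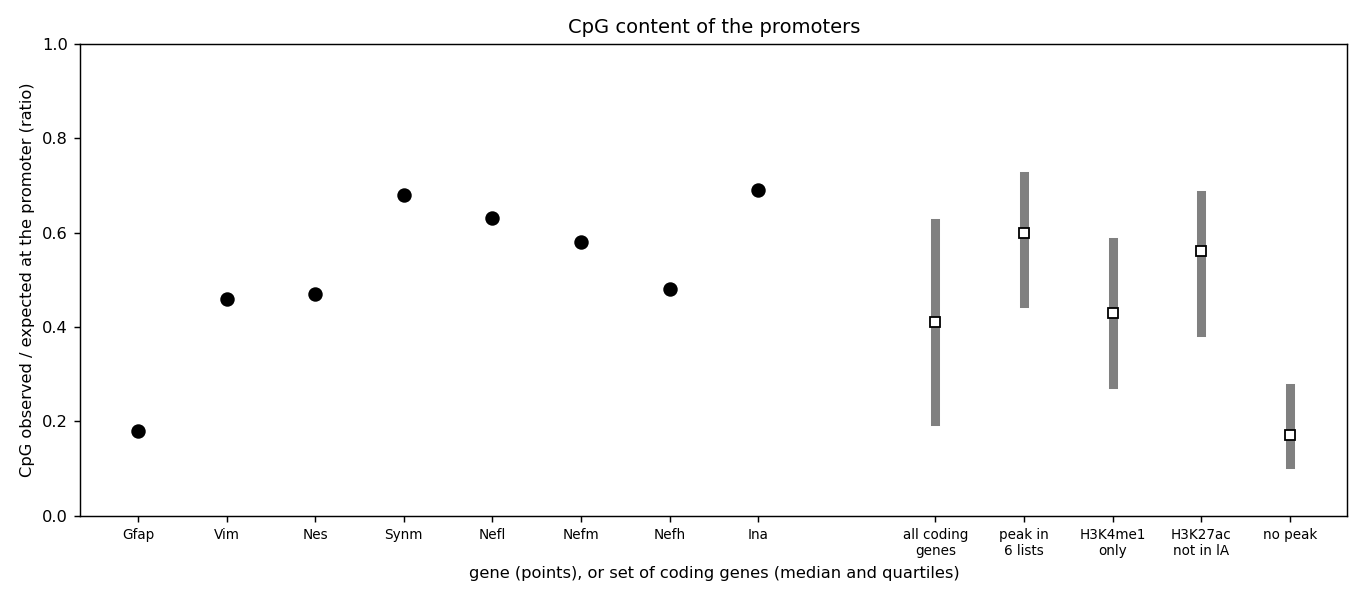
Ratio of observed to expected CpG dinucleotides at the promoter of each gene (points), beside the median (square) and quartiles (bar) of sets of coding genes: all, those with a promoter peak in all 6 lists, those with H3K4me1 at every stage and H3K27ac at none, those that differ from presence in all 6 lists only by the absence of H3K27ac in lA, and those without a promoter peak. Gfap, at 0.18, is the lowest of the 8 genes.

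The motifs in the printed sequences are described as letters and not as bound sites. The upstream Gfap peak held 1 STAT match, TTCTGTGAA, which began 1914 bp upstream of the start, with an NF1 half-site 1 base away from it. A STAT match lay within 150 bases of the summit of this site in each H3K27ac list and in the H3K4me1 lists of aNPC and eA, where 8.88%, 9.22% and 9.40% of all H3K27ac peaks and 9.79% and 10.1% of all H3K4me1 peaks held one. The Vim promoter held a pair of AP-1 matches, TGAGTCA and TGACTCA, which began 319 and 305 bp upstream of the start, and 8.69% of the H3K27ac peaks of aNPC held at least 1. The stretch before the alternative Synm start held 1 RUNX match and that upstream of Ina 1 NF1 half-site. The Gfap promoter stretch, the Nes intron and the stretch upstream of Nefh held none of the 7 motifs. RUNX matches were found in 19.9% and NF1 half-sites in 44.6% of the H3K27ac peaks of lA, so that single matches of these short motifs are frequent.

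Over all H3K27ac peaks of the windows, STAT matches were found at 2 of 17, 3 of 25 and 3 of 28 peaks, at the upstream site of Gfap, at the site 11746 bp from the start of Nes and, in eA and lA, at the site 1744 bp before the alternative start of Synm. NF1 half-sites were found at 9 of 17, 15 of 25 and 13 of 28 peaks, where 44.7%, 46.1% and 44.6% of all peaks of these lists held one. AP-1 matches were found at 1, 2 and 1, against 8.69%, 8.98% and 8.73% of all peaks. RUNX matches were found at 1 of 17, 1 of 25 and 4 of 28 peaks, against 19.6%, 18.8% and 19.9%. SOX matches were found at 1, 4 and 3 peaks, against 14.3%, 14.0% and 14.1%, and POU matches at 0, 1 and 0, against 3.21%, 3.08% and 2.91%. No peak of the windows held a CRE match, a motif found in 0.238% to 0.321% of the peaks of a list.

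Other genes of intermediate filaments and of the proteins that link them were taken from a list of 16, of which 15 were in the annotation. An H3K27ac promoter peak was found at 8, 9 and 8 of these 15, where 50.6%, 53.2% and 48.2% of all coding genes had one. An H3K4me1 promoter peak was found at 11, 12 and 10, where 55.4%, 53.6% and 52.7% of all coding genes had one. The H3K27ac counts lie near the shares over all coding genes and do not set this family apart. The lamin genes Lmna, Lmnb1 and Lmnb2, which line the nucleus, had H3K27ac at every stage. Lmna ranked at 6.70%, 5.55% and 4.39%, and Lmnb1 at 4.87%, 11.6% and 38.4%, with no H3K4me1 promoter peak in lA. The linkers Plec, Dst and Macf1 had both marks at every stage. Sync, whose product syncoilin is known from muscle, had an H3K27ac promoter peak that ranked at 88.2%, 16.6% and 11.5%. Des, of muscle, and Prph, of peripheral neurons, had H3K4me1 at every stage and H3K27ac at none, as the neurofilament genes did. The H3K4me1 peaks ranked at 79.9%, 35.8% and 43.1% for Des and at 7.95%, 96.0% and 36.1% for Prph. Most of these were weaker in rank than those of the neurofilament genes. The epithelial keratin genes Krt14 and Krt18 had neither mark, Krt8 had H3K27ac in eA alone (32.6%) and H3K4me1 at every stage, and Krt5 had only an H3K4me1 peak in eA (79.9%). Of the lens filament genes, Bfsp1 had neither mark and Bfsp2 had both at every stage.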

How the data were processed

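ChIP-seq for H3K27ac and for H3K4me1 covered aNPC, eA and lA grown from mouse embryonic stem cells, with 2 replicates per stage and mark. The authors aligned the reads uniquely to mm9 with Bowtie, merged the replicates with SAMtools 0.1.19 and called peaks with MACS at default parameters without an input control. The deposited lists give the position and summit of each peak, a fold over the local background, which was not used for any result, and the −log10 of the q-value, which the authors' peak caller computed and which was used for ranks within a list. Peaks outside the autosomes and the sex chromosomes, 4 or 5 per list, were set aside. The largest peak ends lay within the chromosome lengths of NCBIM37 (mm9), whose GENCODE M1 annotation gave genes, exons and coding starts.

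Gene windows reached 10 kb beyond each gene, and overlap meant at least 1 bp. The 8 genes were described by the same rule: every promoter peak, the strongest H3K27ac peak outside promoters in each list, and the H3K27ac sites with H3K4me1 in aNPC before H3K27ac or with H3K27ac in aNPC alone. Motifs were counted in 300 bases around summits. The members and lists were chosen with earlier results of these data known, and the printed stretches were chosen after their peaks had been seen. Overlap and motif code was tested on simulated data. Python 3.11.15, NumPy 2.4.6, SciPy 1.17.1, samtools 1.23.1 and matplotlib 3.10.9 were used. Of the series' 51 samples, 8 RNA-seq libraries with conflicting labels were left unassigned, and RNA-seq and the knockdown samples were not analysed here. One further marker gene and one further stretch are not reported here.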

Additional observations from a re-analysis of the deposited data

How the results depend on the processing

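Each stage and mark has 1 merged list, so that no spread between cultures could be given, and the unknown depth limits which weak peaks were called. No paired analysis was possible because no result comes from a test and each list merges its replicates. Of 97 counts and shares recomputed under 9 alternatives, 79 kept their size, counts within 1.5 times and shares within the 95% Wilson interval over sites. With lists of equal length, promoters to 1 kb downstream, windows of 5 kb, without sites at promoters of other genes, or with the H3K27ac summit inside the H3K4me1 peak, none left that range. At a −log10 q of at least 5 the sites in aNPC alone went from 1 to 2 and those in aNPC and lA from 1 to 0, and Synm kept 0, 3 and 6 of its 2, 5 and 8 H3K27ac peaks, without its promoter peak of aNPC. With the summit required inside the promoter, H3K4me1 remained at the promoter of 5, 4 and 4 genes at the 3 stages, and the H3K27ac calls of Ina in aNPC and eA were lost. With gene bodies only, the windows held 9, 16 and 15 H3K27ac peaks and 15, 21 and 22 H3K4me1 peaks in stage order, with 0 sites in aNPC alone, 2 in lA alone, 0 in aNPC and lA and 6 at all stages. With 20 kb on each side, H3K27ac peaks numbered 26, 38 and 44.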
